A study of Schmidtea mediterranea with 36 samples.

Results

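The effect of *alx-3* knockdown was described in planarian tail fragments at 6 h post-amputation (HPA), the time of the early wound response. The 6 libraries labelled 6HPA were chosen, of 36 in the series, and every transcript in them was considered. The 3 *alx-3(RNAi)* libraries came from asexual *Schmidtea mediterranea* of the strain CIW4 fed double-stranded RNA against *alx-3*, an aristaless-like homeobox gene encoding a transcription factor, and the 3 *control(RNAi)* libraries came from the same strain fed on the same schedule with *GFP* double-stranded RNA. Worms of both groups, starved for 7 days beforehand, took 9 RNAi meals, were cut below the pharynx 4 days after the last of them, and were left to regenerate for 6 h. RNA came from whole tail fragments, so a fragment holds the wound and all tissue behind it, and fewer cells of a type cannot be told apart from less RNA per cell. The other libraries cover intact animals and tail fragments collected at 4 other times (0.5, 24, 48 and 72 HPA), again 3 per group.

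Planarians rebuild missing parts from pluripotent stem cells called neoblasts, whose epidermal descendants pass through an early *prog* stage and a later *AGAT* stage before they reach the skin. Within hours of a cut, wounded tissue switches on a set of genes that includes the secreted Wnt ligand *wnt1*, at wounds facing either way. Its secreted inhibitor *notum* is asymmetric, expressed at wounds that face forward. Together they direct whether a head or a tail is made. A tail fragment has to form a new head at its anterior wound. The comparison asks which part of that early programme differs when *alx-3* is reduced.

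The transcript of *alx-3* (SmedASXL_006490) had normalized counts of 315, 361 and 287 in *alx-3(RNAi)* fragments, against 726, 867 and 869 in *control(RNAi)* fragments. A normalized count is the number of reads assigned to a transcript after scaling for the depth of its library, not divided by transcript length. The groups did not overlap, and the *alx-3(RNAi)* mean was 39.2% of the control mean (321 ± 37.4 and 821 ± 81.9, SD, n = 3 each). In limma *alx-3* fell by 1.35 on the log2 scale (SE 0.115, adjusted p = 7.11e-05). An exact permutation test of the 6 libraries gave p = 0.1 (two-sided), the smallest value that 3 against 3 libraries allow. Knockdown was therefore partial, and fragments in both groups retained *alx-3* RNA.

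Across the transcriptome, 769 of 32840 transcripts tested differed at an adjusted p under 0.05 (2.34%), of which 565 were higher (1.72%) and 204 lower (0.621%) in *alx-3(RNAi)* fragments. The groups did not overlap for 7606 transcripts (23.2%), and 5587 had an unadjusted p under 0.05 (17.01%). Higher calls were mostly small, with a median log2 fold change of 0.47, and 31 of them (5.49%) reached 2-fold. Lower calls were larger, with a median of −0.93, and 88 of them (43.1%) reached 2-fold. The 2 sets also sat at different levels, since the median of the mean normalized count was 2290 for higher and 383 for lower calls. In the quartile of transcripts with the highest counts 446 were higher and 70 lower, whereas in the quartile with the lowest counts 1 was higher and 9 were lower. The median SE of the log2 fold change was 0.08 in the highest quartile and 0.43 in the lowest, so a small difference in a scarce transcript was not detectable at this depth.

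**Figure D1:**
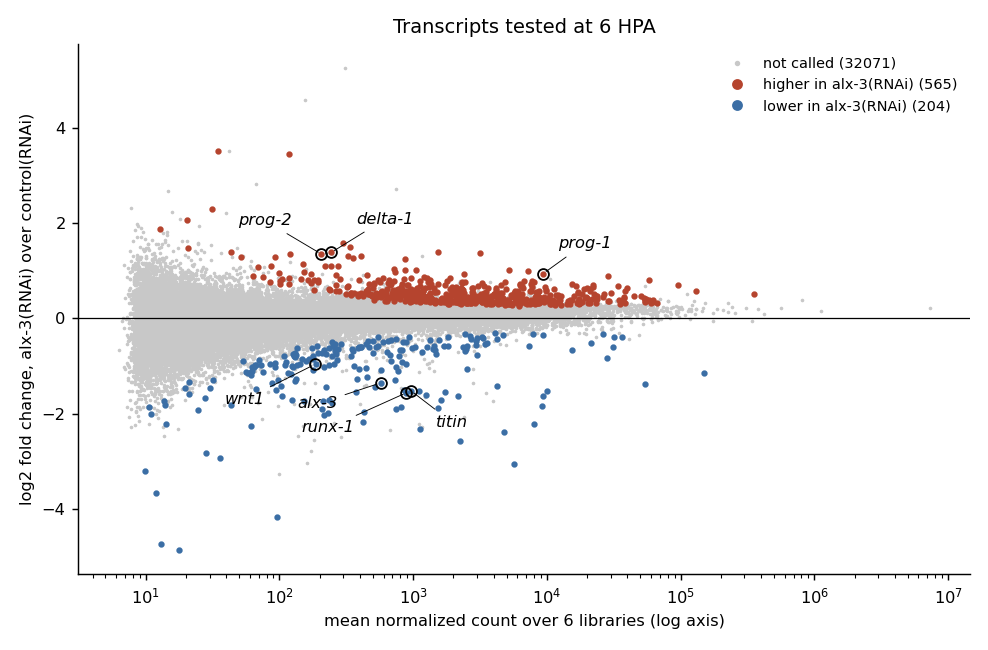
Difference between *alx-3(RNAi)* and *control(RNAi)* fragments at 6 HPA, as a log2 fold change, against the mean normalized count over the 6 libraries (log axis), 1 point per transcript tested. The 565 higher calls lie close to the line at high counts, and the 204 lower calls reach further from it. Circles mark 7 named transcripts, of which *wnt1* was not called.

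The balance of higher and lower calls rested on how the libraries were scaled. With every library brought to the same total, which moved the median log2 fold change of all transcripts to −0.13, against 0.01 as deposited, 185 transcripts were higher and 411 lower. With quantile normalization 295 were higher and 274 lower. No called transcript was called in the opposite direction under either scaling. Summed normalized counts were 60.3 to 65.2 M in *alx-3(RNAi)* and 54.2 to 58.5 M in *control(RNAi)* libraries as deposited. The ribosomal RNA share was 12.8% to 12.9% in *alx-3(RNAi)* and 11.9% to 12.6% in *control(RNAi)* libraries; its part in the result was not tested. The count of calls also needed limma's mean-variance trend, without which 8 transcripts remained, all lower, and no named transcript was called. Leaving out *alx-3(RNAi)* library 1, 2 or 3 gave 311, 1076 or 353 calls, and leaving out control library 1, 2 or 3 gave 331, 417 or 260.

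**Figure D2:**
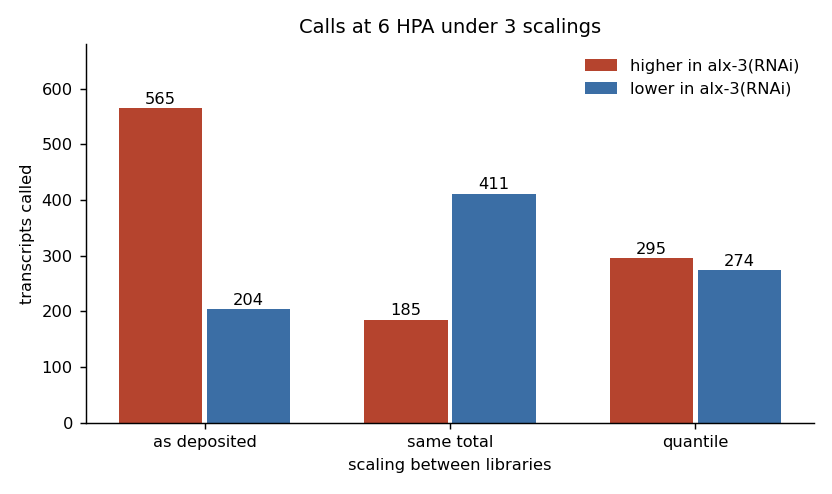
Number of transcripts called higher and lower in *alx-3(RNAi)* fragments at 6 HPA (adjusted p under 0.05) with the scaling as deposited, with the same total in every library and with quantile normalization. Higher calls numbered 565, 185 and 295, and lower calls 204, 411 and 274.

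Libraries also differed within each RNAi group. The 200 transcripts highest in intact animals over control tails at 24 HPA were followed. That contrast does not separate tissue in front of the cut, head or trunk, from transcripts lowered after cutting. Their median deviation from the mean ranged from −0.78 to 0.83 in *alx-3(RNAi)* and from −0.70 to 1.18 in *control(RNAi)* libraries on the log2 scale. The head gene *ndk* (*nou-darake*), which restricts brain tissue to the head, was 137, 762 and 747 in *alx-3(RNAi)* fragments, against 125, 603 and 152 in *control(RNAi)* fragments, and it averaged 2607 ± 106 in *alx-3(RNAi)* and 3021 ± 122 in *control(RNAi)* intact animals (SD, n = 3 each). *ndk* was itself among the 200, which were chosen as higher in intact animals than in control tails. Its lower level here was therefore no separate check of the tissue label. Levels of *ndk* and of the 200 as a whole were uneven between libraries of each group. Of the 200 transcripts, 6 were called higher and 0 lower in limma, beside 1.72% and 0.621% of all transcripts, with a median log2 fold change of −0.21.

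At 6 HPA 270 transcripts carried a gene name, *alx-3* included, and 253 of them were tested. Of the named transcripts 26 were called, 23 higher and 3 lower, beside 1.72% and 0.621% of all transcripts tested. The 3 lower were *alx-3*, *runx-1* and *titin*. Of the 23 higher, 13 belonged to the *prog* families of epidermal progeny. In 16 of the 26 calls the adjusted p stayed under 0.05 in 13 of 14 alternatives and was lost only without the trend. The remaining 10 were also lost when single libraries were left out, and are named where they are described.

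Wound response genes moved in both directions. Of 7 named members tested, 1 fell (*runx-1*), 1 rose (*delta-1*) and 5 did not pass the test. Of all transcripts 0.621% fell and 1.72% rose. The median log2 fold change of the 7 was −0.35, beside 0.01 over all transcripts. The larger of the changes was in *runx-1* (SmedASXL_019812), a Runx-family transcription factor that wounding induces in planarian stem cells. It had normalized counts of 421, 567 and 377 in *alx-3(RNAi)* fragments, against 1208, 1405 and 1361 in *control(RNAi)* fragments. The groups were far apart, and *alx-3(RNAi)* fragments had 34.4% of the control level. The log2 fold change of *runx-1* was −1.56 (SE 0.134, adjusted p = 7.85e-05) and ranged from −1.73 to −1.43 over the 14 alternatives, with an adjusted p of 0.105 without the trend.

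The Notch ligand *delta-1* (SmedASXL_010793) was 541, 287 and 238 in *alx-3(RNAi)* fragments, against 155, 83.4 and 159 in *control(RNAi)* fragments. Every *alx-3(RNAi)* library was above every control, with the first of them well above the rest. It rose by 1.38 on the log2 scale (SE 0.291, adjusted p = 0.0291), or by 1.04 (adjusted p = 0.108) without that *alx-3(RNAi)* library. The call was lost under 7 of 14 alternatives, the same total (adjusted p = 0.0797) and quantile normalization (adjusted p = 0.0677) among them. The other named Notch pathway genes did not pass the test. The receptor *Notch-1* had a log2 fold change of −0.10 (95% interval −0.24 to 0.04). Those of the Hairy/Enhancer-of-split-like genes *hesl-1* and *hesl-3*, a family of Notch targets in other animals, were −1.04 (adjusted p = 0.0846) and −0.34 (adjusted p = 0.362). In all 3 of these uncalled genes, *Notch-1* included, the groups did not overlap and *alx-3(RNAi)* was the lower (8.67% of all transcripts).

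The Wnt genes of the wound lay below control without reaching the threshold. The ligand *wnt1* had normalized counts of 105, 200 and 84.8 in *alx-3(RNAi)* fragments, against 195, 275 and 248 in *control(RNAi)* fragments. The highest *alx-3(RNAi)* library overlapped the lowest control. The log2 fold change of *wnt1* was −0.96 (95% interval −1.52 to −0.40, adjusted p = 0.0777). Leaving out the second *alx-3(RNAi)* library, which was the highest of that group, gave −1.32 (adjusted p = 0.00244), and *wnt1* was also called with no filter on low counts and with a replicate block.

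The Wnt inhibitor *notum* was 195, 217 and 190 in *alx-3(RNAi)* fragments, against 236, 318 and 267 in *control(RNAi)* fragments. These groups did not overlap. With a log2 fold change of −0.44 (95% interval −0.73 to −0.14, adjusted p = 0.120), *notum* was not called under any of the 14 alternatives. None of the other Wnt pathway transcripts passed the test with the scaling as deposited: of 19 tested on the list, *wnt1* and *notum* included, 0 were called in limma, 3 had an unadjusted p under 0.05 (17.01% of all transcripts), and the median log2 fold change was −0.01. *teashirt*, a posterior transcription factor gene, had a log2 fold change of −0.16 (adjusted p = 0.282) and was called lower after scaling to equal totals (−0.30, adjusted p = 0.0247) and after quantile normalization (−0.24, adjusted p = 0.0498). Among posterior genes, the log2 fold change was −0.04 (95% interval −0.25 to 0.16) for *wntP-2*, a posterior Wnt ligand, and −0.14 (95% interval −0.33 to 0.06) for the transcription factor *sp5*. Of the anterior genes, *sfrp-1*, which encodes a secreted Wnt inhibitor of the head, had a log2 fold change of −0.15 (95% interval −0.71 to 0.41) and *FoxD1*, a transcription factor of the anterior pole, of −0.08 (95% interval −0.40 to 0.24).

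Of the other wound response genes, the Runx-family gene *runx-2* was 2430, 1942 and 1957 in *alx-3(RNAi)* fragments, against 2244, 2861 and 3000 in *control(RNAi)* fragments, and the groups overlapped. Its log2 fold change was −0.35 (adjusted p = 0.140), and it was called only when every library had the same total (adjusted p = 0.0356). The TGF-β ligand *activin* was 3648, 2318 and 2996 in *alx-3(RNAi)* fragments, against 2137, 1936 and 2166 in *control(RNAi)* fragments, with no overlap (log2 fold change 0.50, adjusted p = 0.0684). *follistatin*, the secreted activin inhibitor that wounding induces, was 1214, 1426 and 1178 in *alx-3(RNAi)* fragments, against 1346, 1653 and 1417 in *control(RNAi)* fragments. Its groups overlapped, and its log2 fold change was −0.21 (95% interval −0.43 to 0.01, adjusted p = 0.317).

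**Figure D3:**
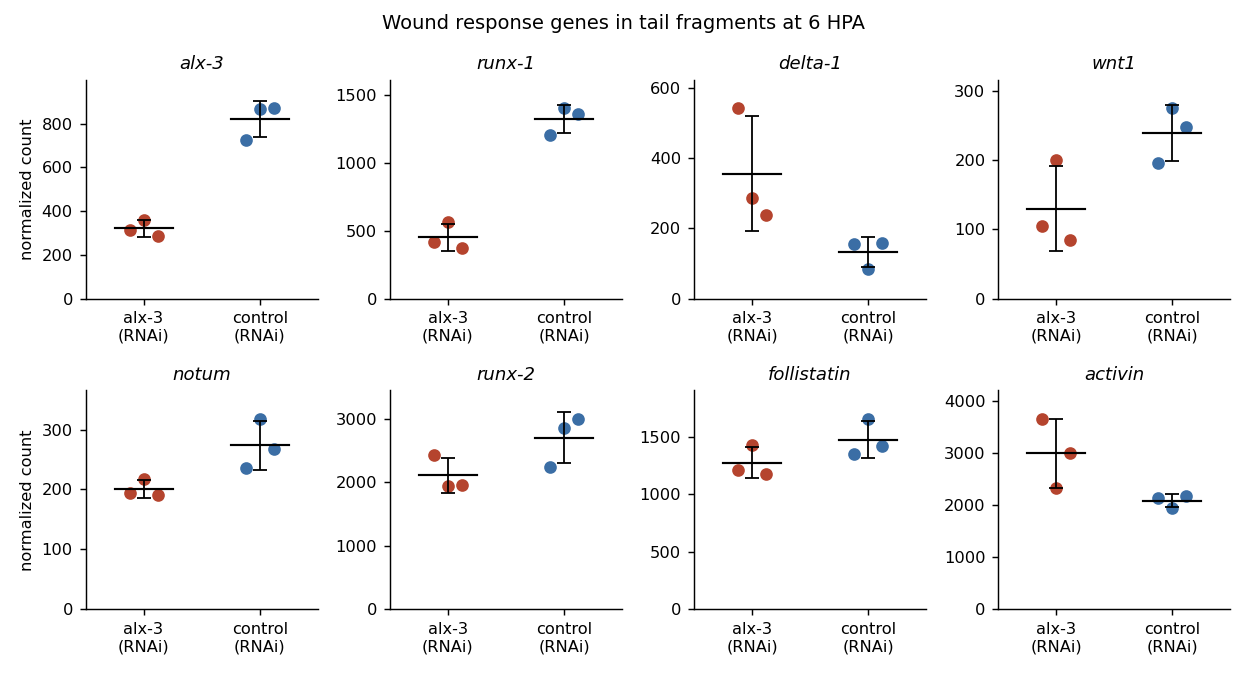
Normalized counts of *alx-3* and the 7 tested wound response genes in each tail fragment library at 6 HPA, with *alx-3(RNAi)* left of *control(RNAi)*. Points are libraries, lines are means and bars SD (n = 3). The groups stand apart in *alx-3* and *runx-1*, while 1 *alx-3(RNAi)* library of *wnt1* reaches the controls.

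The largest named group of changes was in epidermal progeny. Of the 11 *prog-1* subfamily transcripts 7 rose and 0 fell, and of the 7 *prog-2* subfamily transcripts 6 rose and 0 fell. Of all transcripts 1.72% rose and 0.621% fell. The median log2 fold changes were 0.41 and 0.57, beside 0.01 over all transcripts. With the same total in every library the medians were 0.27 and 0.43, beside −0.13 over all transcripts. Of the 2 subfamilies 5 and 6 were then called higher, beside 185 of all 32906 tested. Both subfamilies consist of related copies between which reads may be divided, so the value of each copy is uncertain. Summed over the 11 transcripts, the *prog-1* subfamily had 73747 ± 5199 normalized counts in *alx-3(RNAi)* and 53322 ± 2822 in *control(RNAi)* fragments (SD, n = 3 each). The sum for the *prog-2* subfamily was 103409 ± 5627 in *alx-3(RNAi)* and 70086 ± 4169 in *control(RNAi)* fragments.

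The founding marker of the first subfamily, *prog-1* (also named NB.21.11e), had 13637, 11760 and 11644 normalized counts in *alx-3(RNAi)* fragments, against 6376, 6382 and 6477 in *control(RNAi)* fragments. The controls were nearly identical and every *alx-3(RNAi)* library was far above them. That is a rise of 0.94 on the log2 scale (SE 0.0733, adjusted p = 3.43e-05). The marker *prog-2* (also named NB.32.1g) was 296, 330 and 261 in *alx-3(RNAi)* fragments, against 111, 100.02 and 137 in *control(RNAi)* fragments. These groups did not overlap either, and *prog-2* averaged 2.55 times the control level (log2 fold change 1.35, SE 0.152, adjusted p = 0.000781).

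The other 11 *prog* transcripts that rose had log2 fold changes between 0.33 (*prog1g*) and 0.78 (*prog1a*), and *prog1a* was 10516, 9848 and 9203 in *alx-3(RNAi)* fragments, against 5713, 5743 and 5701 in *control(RNAi)* fragments. Most of them kept their call in 13 of 14 alternatives. The exceptions were *prog1g* and *prog-1b*, lost in 7 and 8 of 14 alternatives, including the same total (adjusted p = 0.102 and 0.204). *prog-1e* (0.30, adjusted p = 0.0520) and *prog2g* (0.64, adjusted p = 0.0551) lay just outside the threshold. 1 transcript of the first subfamily, *prog-1i*, lay the other way, with 2480, 2175 and 2019 normalized counts in *alx-3(RNAi)* fragments, against 3144, 2563 and 2559 in *control(RNAi)* fragments (log2 fold change −0.31, adjusted p = 0.135).

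The later stage of the lineage, marked by the *AGAT* family, was not called. None of its 5 transcripts passed the test in limma, although 4 had an unadjusted p under 0.05 (17.01% of all transcripts) and no overlap between groups with *alx-3(RNAi)* the higher (14.5% of all transcripts), and all 5 log2 fold changes lay between 0.20 and 0.26. *AGAT1* was 27312, 25969 and 23345 in *alx-3(RNAi)* fragments, against 20787, 20755 and 22233 in *control(RNAi)* fragments. Its 95% interval was 0.10 to 0.42 (adjusted p = 0.0873), and the difference between the stages was not tested. A vimentin-named marker of the epidermal lineage, *vim-1*, rose, with 25547, 19534 and 23656 in *alx-3(RNAi)* fragments, against 15746, 13107 and 15788 in *control(RNAi)* fragments (log2 fold change 0.62, SE 0.102, adjusted p = 0.00898).

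**Figure D4:**
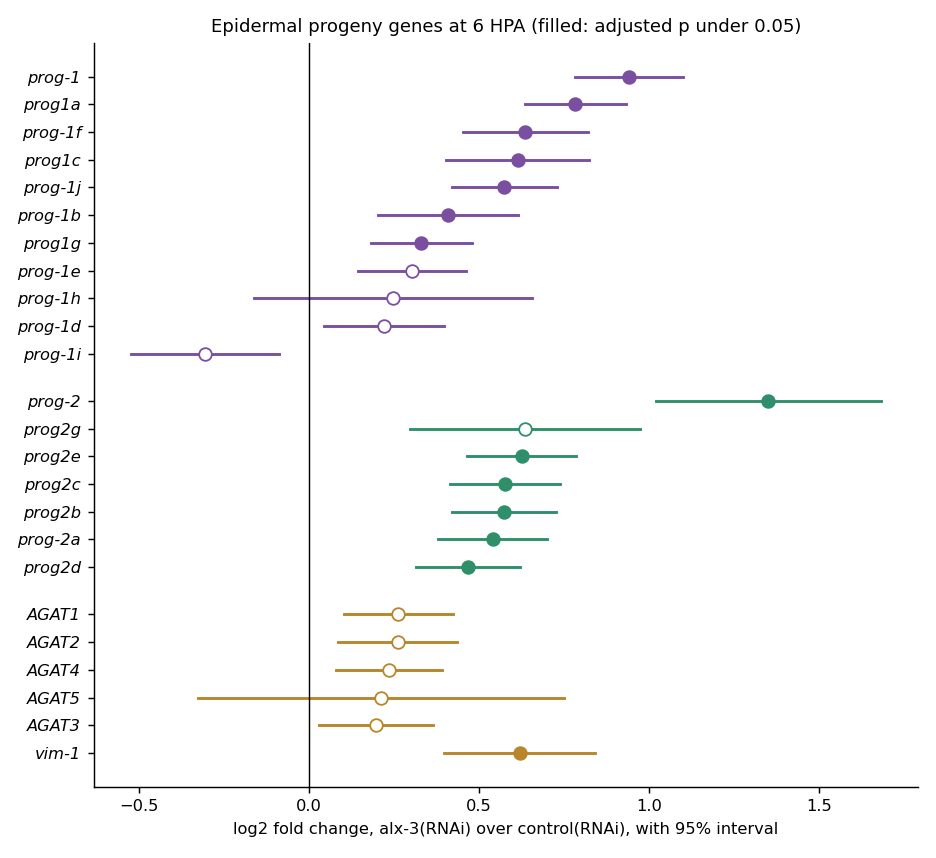
Log2 fold changes at 6 HPA (*alx-3(RNAi)* relative to *control(RNAi)* fragments) for the *prog-1* subfamily (purple), the *prog-2* subfamily (green) and the *AGAT* family with *vim-1* (ochre), with 95% intervals from limma. Filled points passed an adjusted p under 0.05. The *AGAT* transcripts lie between 0.20 and 0.26, most *prog* transcripts lie above them, and *prog-1i* is the only one below 0.

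Stem cell transcripts lay mostly a little above control. Of 9 neoblast genes 8 had an unadjusted p under 0.05 (17.01% of all transcripts). After adjustment 1 rose and 0 fell, beside 1.72% and 0.621% of all transcripts. The gene that rose was *soxP-1*, which encodes a SoxP transcription factor enriched in neoblasts. Its normalized counts were 1234, 1095 and 1213 in *alx-3(RNAi)* fragments, against 806, 832 and 896 in *control(RNAi)* fragments, with no overlap (log2 fold change 0.48, SE 0.0859, adjusted p = 0.0140). The call was lost without the first (adjusted p = 0.0555) or the third *alx-3(RNAi)* library (adjusted p = 0.0627) and without the first control (adjusted p = 0.0537). In 8 of the 9 genes the groups did not overlap and *alx-3(RNAi)* was the higher (14.5% of all transcripts), and in 1, *soxP-2*, it was the lower (8.67% of all transcripts). *soxP-2*, another SoxP gene, had a log2 fold change of −0.22 (adjusted p = 0.154), and was called lower after scaling to equal totals (−0.36, adjusted p = 0.0177) and after quantile normalization (−0.30, adjusted p = 0.0444). *Smedwi-1*, the PIWI gene used as the general neoblast marker, was 38835, 32495 and 34389 in *alx-3(RNAi)* fragments, against 30539, 28132 and 31090 in *control(RNAi)* fragments. Its log2 fold change was 0.23 (95% interval 0.06 to 0.40, adjusted p = 0.149). *p53*, which in planarians acts in neoblasts and early progeny, was at 0.30 (adjusted p = 0.0558). The median over the 9 was 0.19 as deposited and 0.05 with the same total, and the 5 cell cycle genes had 0 calls in limma (2 at an unadjusted p under 0.05, beside 17.01% of all transcripts) and medians of 0.19 and 0.05.

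Pigment and heme synthesis genes rose in part. Of 6 tested 3 were called higher and 0 lower, beside 1.72% and 0.621% of all transcripts. With the same total or with quantile normalization 1 of the 6 was called higher. *PBGD-1*, which encodes the heme pathway enzyme porphobilinogen deaminase, was 32504, 28622 and 30190 in *alx-3(RNAi)* fragments, against 20112, 23014 and 23973 in *control(RNAi)* fragments (log2 fold change 0.45, SE 0.0802, adjusted p = 0.0140). *ALAS*, the synthase that starts the same pathway, was 14228, 9871 and 12955 in *alx-3(RNAi)* fragments, against 8130, 9005 and 8827 in *control(RNAi)* fragments (log2 fold change 0.50, SE 0.111, adjusted p = 0.0386). The kynurenine monooxygenase gene *KMO-1*, of the ommochrome pigment pathway, rose by 0.53 on the log2 scale (SE 0.116, adjusted p = 0.0349). The groups did not overlap in these 3, with *alx-3(RNAi)* the higher (14.5% of all transcripts). The call of *PBGD-1* was lost without the first (adjusted p = 0.0616) or the third *alx-3(RNAi)* library (adjusted p = 0.0520) and without the first control (adjusted p = 0.0561). With the same total the calls of *ALAS* and *KMO-1* were lost (adjusted p = 0.102 and 0.125), as they were without the first or the third *alx-3(RNAi)* library. *ALAS* lost its call in 8 and *KMO-1* in 7 of 14 alternatives, quantile normalization among them. *FoxF1*, a transcription factor of pigment and other parenchymal cells, had a log2 fold change of 0.01 (95% interval −0.16 to 0.18).

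Muscle and matrix genes went opposite ways. The transcript named *titin*, after the giant spring protein of the sarcomere, had 307, 680 and 558 normalized counts in *alx-3(RNAi)* fragments, against 1530, 1180 and 1519 in *control(RNAi)* fragments. The groups were far apart, and *titin* fell by 1.52 on the log2 scale (SE 0.223, adjusted p = 0.00467). *LOXL2*, which encodes a lysyl oxidase-like enzyme that crosslinks collagen, was 1167, 836 and 990 in *alx-3(RNAi)* fragments, against 638, 609 and 700 in *control(RNAi)* fragments, without overlap. It rose by 0.61 on the log2 scale (SE 0.117, adjusted p = 0.0196), and the call was lost in 8 of 14 alternatives. *myoblast_city*, a gene of myoblast fusion in flies, was at −0.11 (95% interval −0.25 to 0.04).

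Other named genes that rose were *pepck*, *pXW0053* and *estrella*. The gluconeogenic enzyme gene *pepck* was 8910, 7235 and 8235 in *alx-3(RNAi)* fragments, against 5207, 4914 and 5413 in *control(RNAi)* fragments (log2 fold change 0.65, SE 0.0819, adjusted p = 0.00172). *estrella*, expressed in planarian glia, was 6789, 6664 and 6708 in *alx-3(RNAi)* fragments, against 5556, 5697 and 5557 in *control(RNAi)* fragments. Both genes had no overlap, but *estrella* had the smallest change of any call (log2 fold change 0.26, adjusted p = 0.0467) and lost it in 11 of 14 alternatives, and *pXW0053* (0.35, adjusted p = 0.0298) lost it in 7. With the scaling as deposited no member was called of the 22 nuclear receptor, 13 chromatin, 9 Hedgehog, 9 Mediator or 24 neural and homeobox genes tested, the last without *alx-3*. Their median log2 fold changes in limma were 0.04, 0.06, 0.01, 0.10 and 0.01, and 4, 3, 0, 0 and 5 of them had an unadjusted p under 0.05, beside 17.01% of all transcripts. After scaling to equal totals the nuclear receptor gene *nhr-13* (−0.27, adjusted p = 0.0434) and the chromatin remodelling gene *ISWI-2* (−0.34, adjusted p = 0.0211) were called lower, *ISWI-2* also after quantile normalization (−0.28, adjusted p = 0.0453).

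Most calls carried no gene name, 542 of the higher and 201 of the lower. SmedASXL_011551 was 225, 220 and 200 in *alx-3(RNAi)* fragments, against 27.3, 10.5 and 23.03 in *control(RNAi)* fragments (log2 fold change 3.44, adjusted p = 6.86e-05). SmedASXL_016556 was 47.0, 43.8 and 92.4 in *alx-3(RNAi)* fragments, against 6.07, 18.4 and 0 in *control(RNAi)* fragments (log2 fold change 3.50, adjusted p = 0.0444), and lost its call in 8 of 13 alternatives. These were the 2 largest rises among calls. The 2 largest falls were in transcripts listed at 0 in all *alx-3(RNAi)* libraries. SmedASXL_001082 was 70.8, 15.8 and 19.2 and SmedASXL_018563 was 30.3, 19.4 and 28.1 in *control(RNAi)* fragments. Against a floor of 3 counts per library they were at least 12.4-fold and 9.13-fold lower in *alx-3(RNAi)* fragments (adjusted p = 0.00264 and 0.00103). The first bound rested on control library 1, without which SmedASXL_001082 was at least 6.15-fold lower.

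*runx-1*, *delta-1* and *wnt1* had their highest mean control level at 6 HPA, in tables that were scaled separately for each time. *runx-1* averaged 42.1 in *alx-3(RNAi)* and 39.7 in *control(RNAi)* intact animals, and 41.5 in *alx-3(RNAi)* and 72.2 in *control(RNAi)* fragments at 0.5 HPA. At 6 HPA the means were 455 ± 99.6 in *alx-3(RNAi)* and 1324 ± 103 in *control(RNAi)* fragments (SD, n = 3 each). By 24 HPA they were 204 in *alx-3(RNAi)* and 251 in *control(RNAi)* fragments. *delta-1* averaged 356 ± 163 in *alx-3(RNAi)* and 132 ± 42.4 in *control(RNAi)* fragments at 6 HPA. Before that, at 0.5 HPA, *delta-1* was 42.4 in *alx-3(RNAi)* and 33.1 in *control(RNAi)* fragments, and after it, at 24 HPA, 97.3 in *alx-3(RNAi)* and 50.7 in *control(RNAi)* fragments. *wnt1* averaged 130 ± 61.8 in *alx-3(RNAi)* and 239 ± 40.4 in *control(RNAi)* fragments at 6 HPA. Before that, at 0.5 HPA, *wnt1* was 41.5 in *alx-3(RNAi)* and 56.8 in *control(RNAi)* fragments, and after it, at 24 HPA, 54.0 in *alx-3(RNAi)* and 91.6 in *control(RNAi)* fragments. In *alx-3(RNAi)* fragments too, the means of these 3 genes were higher at 6 HPA than at the times on either side, with no test between tables.

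Whether the effect of knockdown at 6 HPA differed from that at another time was tested for each transcript with an interaction term in limma. Against intact animals 2 of 30195 transcripts differed (0.00662%), and 1688 had an unadjusted p under 0.05 (5.59%). One of the 2 was *runx-1*, whose log2 fold change was −1.56 at 6 HPA and 0.08 in intact animals (difference −1.64, SE 0.223, adjusted p = 0.0458). It kept that call in 4 of 9 alternatives, all with the trend and with every library of the other time. Against 0.5 HPA 0 of 30926 differed (0%), with 1727 at an unadjusted p under 0.05 (5.58%). The *runx-1* difference from 0.5 HPA was −0.77 (SE 0.285, adjusted p = 0.893), and no difference of the effect was detected for any transcript between these times.

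Later times differed more often, by 10 of 29719 transcripts at 24 HPA (0.0336%), 51 of 30605 at 48 HPA (0.167%) and 107 of 31037 at 72 HPA (0.345%). *soxP-1* was higher in *alx-3(RNAi)* fragments at 6 HPA and lower at 24 HPA (log2 fold changes 0.48 and −0.41). The difference of 0.90 (SE 0.103, adjusted p = 0.00333) held in 9 of 9 alternatives, but it was not tried without the trend or without any 24 HPA library. *prog-1* had a larger effect at 6 HPA than at 48 HPA (0.94 and 0.08, difference 0.86, SE 0.123, adjusted p = 0.00847). *runx-2* lay on the other side of 0 at 48 HPA (−0.35 and 0.80, difference −1.16, SE 0.178, adjusted p = 0.0115). For *runx-1* the difference from 48 HPA was −1.51 (adjusted p = 0.0510) and that from 24 HPA −1.18 (adjusted p = 0.312).

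**Figure D5:**
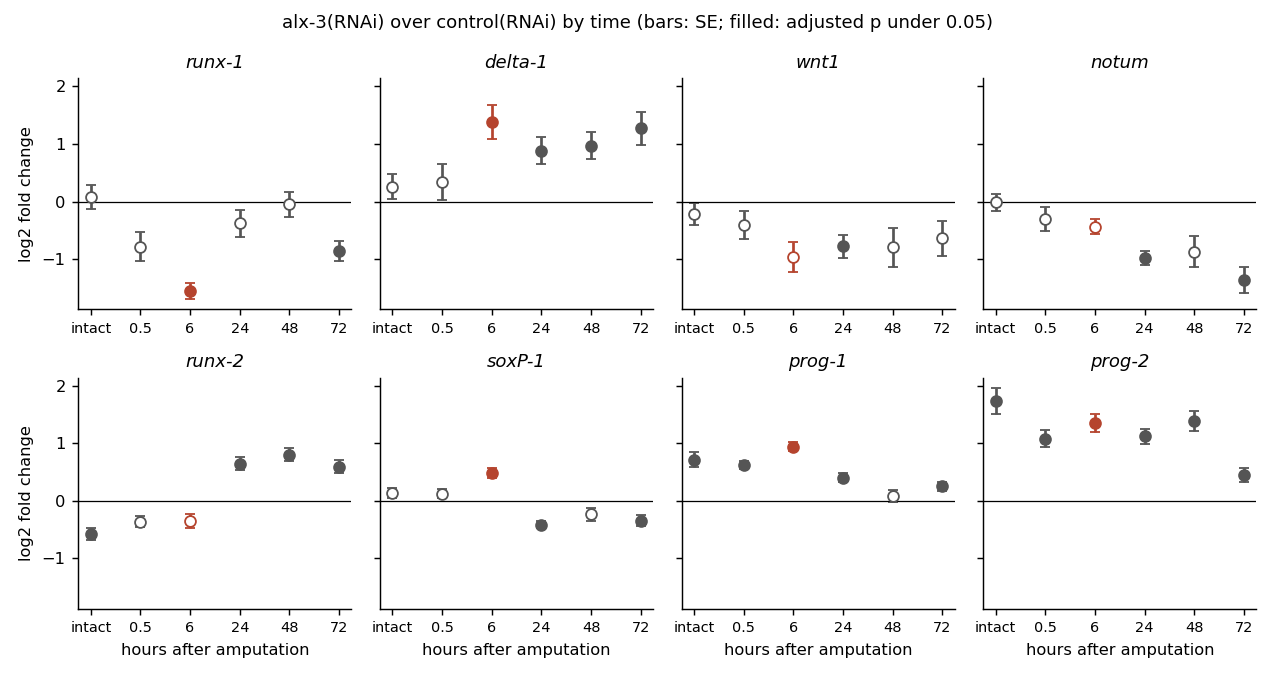
Log2 fold changes (*alx-3(RNAi)* relative to *control(RNAi)*) of 8 genes in intact animals and, by hours after amputation, in tail fragments, with 6 HPA in red. Bars are SE from limma and filled points passed an adjusted p under 0.05. *runx-1* is at −1.56 at 6 HPA and at 0.08 in intact animals, and *soxP-1* changes side after 6 HPA.

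Other times share neither *alx-3(RNAi)* nor control libraries with 6 HPA. Of the 565 transcripts higher at 6 HPA, 84 were called higher in intact animals (14.9%, beside 0.384% of all tested there), 247 at 0.5 HPA (43.7%, beside 1.24%), 407 at 24 HPA (72%, beside 4.28%), 223 at 48 HPA (39.5%, beside 2.36%) and 442 at 72 HPA (78.2%, beside 10.5%). These made up 67.2%, 60.1%, 30.9%, 29.2% and 12.6% of the higher calls at those times. Of the 204 lower, 80 were called lower in intact animals (39.2%, beside 0.501%), 102 at 0.5 HPA (50%, beside 0.794%), 111 at 24 HPA (54.4%, beside 3.01%), 66 at 48 HPA (32.4%, beside 1.11%) and 88 at 72 HPA (43.1%, beside 2.62%). They were 49.1%, 38.6%, 12%, 18.4% and 10% of the lower calls there.

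At all 5 other times 46 transcripts were called higher and 44 lower, the named ones being *ALAS*, *prog-1f*, *prog-1j* and *prog-2* among the higher and *alx-3* among the lower. At no other time were 61 of the higher (10.8%) and 50 of the lower (24.5%) called the same way, with *prog-1b* and *soxP-1* the named ones. Of the 26 named calls 22 had the same direction at all 5 other times. SmedASXL_011551 was called higher at each time, with log2 fold changes between 3.05 and 3.54. *titin* had log2 fold changes of −0.76 in intact animals, where it was scarce, and −1.15, −1.37, −0.81 and −1.18 at 0.5, 24, 48 and 72 HPA.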

How the data were processed

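RNA was extracted from tail fragments or intact animals with TRIzol, libraries were made with a TruSeq kit after polyA selection, and 50 bp pairs were read. Per the labels and methods, the authors trimmed reads with Trimmomatic 0.39, assigned them with Salmon 1.4.0 to the Smed_ASXL transcriptome and scaled counts with DESeq2 1.30.1 for each time point. The deposited signal is the normalized count; the table header says RPKM, but each row mean equals the mean normalized count in the authors' results table. The authors' deposited log2 fold changes and p-values were not used. Replicates are described as biological triplicates.

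The 6 HPA table held 62798 transcripts. Those reaching 10 normalized counts in 3 or more of the 6 libraries were tested on log2(normalized count + 1), a scale that understates changes of scarce transcripts, with limma 3.58.1 in R 4.3.3 (lmFit, eBayes with a trend, two-sided), Benjamini-Hochberg adjustment over all tested transcripts and a threshold of 0.05. Differences between times used an RNAi-by-time interaction over 12 libraries; those against 48 and 72 HPA were added after seeing the data. 1 read was taken as the median of the smallest values of a library, 0.862 to 1.284 normalized counts. That gave about 45.5 to 70.0 M reads per library. Only 17.3% to 49.6% of low values were whole multiples of that step, so the estimate is rough, and the paper states a lower depth. Whole reads could not be recovered, so no count model was fitted. The tests were also run on simulated data whose noise followed a smooth curve of the mean, so that run could not check the trend.

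Names came from transcript IDs. The text names *alx-3*, every named transcript called, 8 wound and muscle genes whether called or not, and the 2 unnamed transcripts that rose and the 2 that fell most; *hesl-1*, *hesl-3*, *ndk* and other uncalled genes were chosen after their values were seen. The genes and lists were chosen with earlier results of these data known. Alternatives were other pseudocounts (0.5, 5), filters (none, mean of at least 50), scalings, a replicate block, no trend and leaving out each library. Intervals are 95%.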

Additional observations from a re-analysis of the deposited data

Results flagged for a closer look

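For 12 named genes the effect of knockdown at 6 HPA differed from that at another time by the limma interaction test, in 18 comparisons at an adjusted p under 0.05. Differences are the log2 fold change at 6 HPA minus that at the other time. In *soxP-1* the difference was 0.90 from 24 HPA, 0.72 from 48 HPA and 0.83 from 72 HPA, and in *prog-1* it was 0.86 from 48 HPA and 0.69 from 72 HPA. *prog1a* differed by 0.65 from 48 HPA. *prog-1* and *prog1a* lay further above control at 6 HPA than at the later time, and *soxP-1*, above control at 6 HPA, lay below it at all 3 later times. In limma *soxP-1* was called lower at 24 and 72 HPA but not at 48 HPA (log2 fold change −0.23, adjusted p = 0.290).

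The remaining differences were negative. *runx-1* differed by −1.64 from intact animals, with −1.56 at 6 HPA. *runx-2* differed by −1.16 from 48 HPA and −0.94 from 72 HPA. Posterior and Wnt genes that were not called at 6 HPA lay above control later: the difference was −0.73 from 48 HPA and −1.02 from 72 HPA in *sp5*, −1.02 from 72 HPA in *wntP-2*, −0.89 from 72 HPA in the Frizzled gene *Fzd-d*, and −0.77 from 72 HPA in *teashirt*. The transcript *tr5_12233* differed by −0.81 from 48 HPA and −1.21 from 72 HPA. *lectin-like* differed by −3.05 and *lactb* by −1.68 from 48 HPA; both overlapped between groups at 6 HPA. Of these comparisons *soxP-1* against 24 and 72 HPA, *prog-1* against 48 HPA, *tr5_12233* against 72 HPA and *teashirt* against 72 HPA kept their call in 9 of 9 alternatives, and *runx-1* against intact animals kept it in 4. *soxP-1* and *prog1a* against 48 HPA kept it in 3 (adjusted p up to 0.164 and 0.128), and *sp5* against 48 HPA and *runx-2* against 72 HPA in 5 (up to 0.165 and 0.155). The other 8 kept it in 6 to 8. All of these alternatives kept the trend, and the only libraries left out were those at 6 HPA.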

How the results depend on the processing

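No transcript called at 6 HPA was called in the opposite direction under any of 14 alternatives, and other pseudocounts or filters gave 753 to 906 calls. With the same total 185 transcripts were higher and 411 lower, and with quantile normalization 295 were higher. Without the trend 8 were called, 0 higher and 8 lower, with 0 named calls, and *alx-3* at −1.35 had an adjusted p of 0.0806. Leaving out each library in turn gave 260 to 1076 calls, 190 to 769 higher, 65 to 307 lower and 17 to 33 named. The cause was not tested.

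Deviations of same-numbered libraries correlated at 0.02, 0.02 and −0.05. Values over all transcripts cannot exclude a pairing that acts on part of them, and the labels do not state one. With a replicate block 1050 were called, 740 higher and 310 lower, against 769, 565 and 204 without it.

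Interaction counts moved as well. With the same total the count was 118 against 48 HPA, 161 against 72 HPA and 0 against intact animals, and with quantile normalization it was 142 and 177 against 48 and 72 HPA. Leaving out each library gave 0 to 1 against 0.5 HPA, 3 to 24 against 24 HPA, 11 to 80 against 48 HPA, 26 to 218 against 72 HPA and 0 to 11 against intact animals. A count model was planned and not run.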
